A study of Homo sapiens with 16 samples.

Results

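The immune, fibroblast and endothelial cells of LPA1-T22 (T22) tumors were compared with the cells of the same names in LPA1-T127 (T127) tumors, using the 4 T22 and 4 T127 pools of the short-term experiment. A cell class entered when its deposited cluster name was non-malignant and held at least 50 cells in both models, which 10 of 18 non-malignant names did. These 10 held 13423 cells, 10668 from T22 pools (2573 to 2752 per pool) and 2755 from T127 pools (656 to 746 per pool), out of 16269 non-malignant and 23101 short-term cells and of 53946 cells in the whole series. Both tumor lines came from mice carrying a transgene for the lysophosphatidic acid receptor LPA1 in the mammary epithelium, are BRCA1/2 wild type, and were grown as 25 mm3 chunks in the mammary fat pad of 6-week-old female FVB mice with intact immunity. T22 is described as intrinsically sensitive and T127 as intrinsically resistant to inhibitors of poly(ADP-ribose) polymerase (PARPi). Treatment with vehicle or olaparib, a PARPi, at 50 mg/kg daily lasted 4 or 8 days. It began 14 days after transplantation in T22, and the sources used here differ on whether it began after 14 or after 10 days in T127. Hashtagged cells of vehicle and olaparib tumors were mixed within every pool, and no file used here gives a cell's tumor or treatment, so both are averaged over. By the paper's cell counts per tumor, most cells of each model came from olaparib tumors. The averages thus weigh olaparib above vehicle and are not an untreated baseline. Each line is 1 tumor lineage passed from mouse to mouse, each model was captured separately from the other, and model and capture cannot be told apart.

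Macrophages and monocytes carry much of the inflammatory signalling in a tumor. Il1a, Tnf and the chemokines Ccl3 and Ccl4 are classical products of inflammatory activation, while Arg1 (arginase, which consumes arginine), Mrc1 (the mannose receptor CD206) and Chil3 are used as markers of alternatively activated, often tumor-promoting cells. Natural killer (NK) cells kill through granzymes and perforin, naive and central memory T cells recirculate through lymph nodes with the help of Ccr7, fibroblasts make the collagen matrix, and endothelial cells line vessels and admit leukocytes.

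Every count below is a count of unique molecular identifiers (UMIs), one per captured mRNA, summed over the cells of one name in one pool and given per 1000000 of those UMIs (CPM), a share of the class's captured RNA. The 8 pools held 40270841 to 55600377 UMIs each. Cells are not replicates, and which tumors each of the 4 pools of a model holds is not given in the sources used here, so each model counted as 1 sample and no p-value was computed. In place of a test, a gene was called when its level differed at least 2-fold between the models (with 1 CPM added to both) and all 4 pools of one model lay above all 4 of the other, among genes with a mean of at least 20 CPM over the models. Pools of a called gene are apart by this rule, so a lack of overlap stated below adds nothing to the call. The 95% interval of a ratio is an exact conditional binomial one and covers counting error only. Pools of one model differed by more than counting error, with a chi-square over its degrees of freedom of 1.85 to 6.21 across classes and models, highest for CD14-PF4 in T127. The 28 pairs of pools shared 0 to 8 cell barcodes.

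The pools differed most in their malignant cells, which made up 12.1 to 13.6% of cells and 30.1 to 33.0% of UMIs in T22 pools but 59.5 to 62.1% of cells and 83.5 to 85.1% of UMIs in T127 pools. RNA freed from such cells enters every droplet. It was estimated from tracer genes of the malignant cells that the other model's cells lacked, 19 in T22 (among them Krt14, Krt5, Wfdc18 and Cck) and 3 in T127 (Hmga2, Dynap and Rgs17), as the median share of their whole-pool level that remained in a class. In T22 this share was 1.83% in i_CAF, 1.93% in CD14-IL1B, 2.97 to 4.18% in 6 further classes, 8.25% in CD16-CDKN1C and 11.9% in CD14-PF4. In T127 it ran from 0.706% in Macro-MKI67 to 3.96% in CD4_Tcm-TCF7. Beside a gene, the free-RNA percentage below is this share times the gene's whole-pool level, as a percent of its level in the class.

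**Figure D1:**
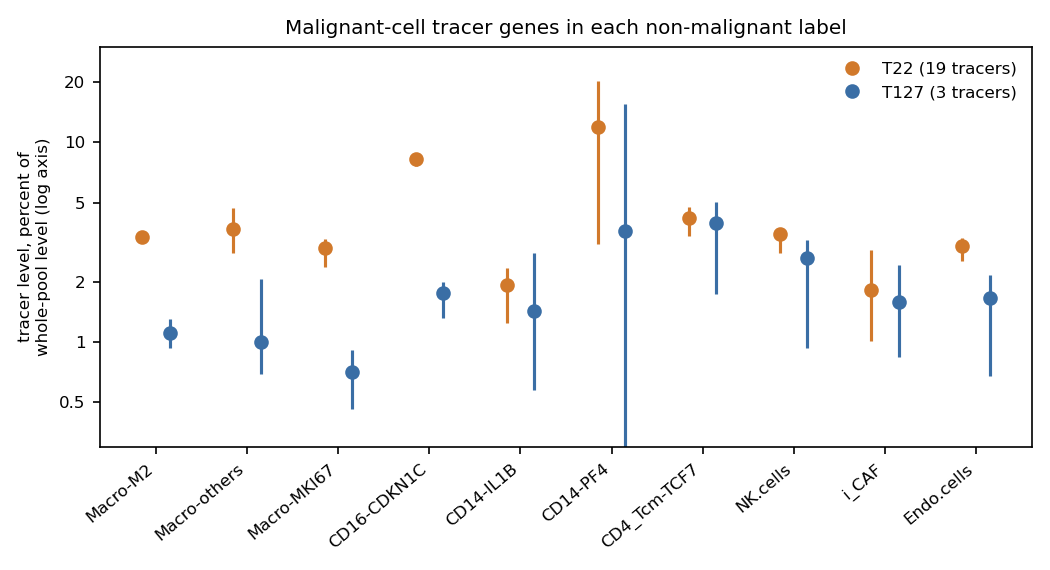
Level of malignant-cell tracer genes in each of the 10 non-malignant classes, as a percent of their whole-pool level on a log axis. Dots are the median over 19 tracers (T22, orange) or 3 tracers (T127, blue) over the 4 pools of a model, and lines run from the lowest to the highest pool (a pool at 0 is cut at the axis); CD14-PF4 and CD16-CDKN1C stand highest in T22, at 11.9% and 8.25%.

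Checked against their leading genes, and Macro-MKI67 also against macrophage markers, 6 of the 10 names carried markers of the broad cell type named in both models. Macro-MKI67 was led by histone and mitotic genes (Birc5, Prc1), with 7 macrophage markers compared and the list summing to 10279 CPM in T22 (pools 9520.3 to 11436) and 6079.5 CPM in T127 (pools 4565 to 8314), NK.cells by Gzma, Ncr1 and Prf1, i_CAF (inflammatory cancer-associated fibroblasts) by Col1a1, Col1a2 and Col3a1, Endo.cells by Cdh5, Egfl7 and Emcn, and CD4_Tcm-TCF7 by Cd3d, Cd3g and Trbc2. The subtype was less clear for the last of these and for i_CAF, since Tcf7 and Lef1 led CD4_Tcm-TCF7 in T127 but not in T22, and matrix genes led i_CAF. Macro-M2 was led by Retnla, Mrc1 and Chil3 in T22 and by Arg1, Chil3 and Pf4 in T127. In Macro-others the leading genes were Il1a, Ccl3 and Cxcl2 in T22, but hemoglobin genes, Ccl22, Ccl17, Cd209a and Epcam in T127. The data went against the names CD14-IL1B and CD14-PF4, and the leading genes of CD16-CDKN1C were mixed. CD14-IL1B was led in both models by Xcr1, Il12b, Ccl22 and Wdfy4, genes of cross-presenting dendritic cells, and is called the Xcr1 class here. CD14-PF4 had S100a8, S100a9, Hp and Retnlg, genes of neutrophils and monocytes, among its leading genes in both models. Beside them stood the epithelial genes Krt8, Cldn3 and Wfdc2 in T22 and hemoglobin genes in T127. It is called the S100a8 class after a leading gene only. Its neutrophil markers varied widely between the pools of each model, as given below, so the label does not name a cell type. CD16-CDKN1C, named as a CD16 monocyte, had the macrophage genes Ccl8, Ms4a7 and Pf4 among its leading genes in T22, beside the malignant-cell tracer Cck. In T127 Ccl8 and Ms4a7 stood beside Cxcl13, Hspa1b, Pou2f2, Apoe, Hspa1a and Ifitm6. It is called the Ms4a7 class after a leading gene of both models. Whether its cells are monocytes or macrophages was not tested. The class was also shallow, with a median of 2407 UMIs per cell in T22 and 4922 in T127.

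The models differed in every class, in 266 genes called in Endo.cells up to 939 in the Ms4a7 class, out of 5233 to 6291 genes compared. A call requires all pools to be apart, so these counts can also depend on the cells and UMIs of a class. That part was not tested, and their order does not rank the classes by difference. More genes were higher in T127 than in T22 in 5 of the 6 myeloid classes, and more were higher in T22 in the S100a8 class and in all 4 lymphoid and stromal classes. That split depends on scaling, because the median gene already stood -0.26 (log2, T22 over T127) in the Ms4a7 class, -0.21 in the Xcr1 class, -0.17 in Macro-others, -0.14 in Macro-MKI67 and -0.12 in Macro-M2, against -0.07 to 0.04 in the other 5. With ratios centred on that median, the share of called genes that were higher in T22 moved from 26.1% to 47.1% in the Ms4a7 class, from 27.1% to 49.5% in the Xcr1 class, from 37.3% to 48.6% in Macro-others, from 43.6% to 55.8% in Macro-MKI67 and from 39.2% to 49.7% in Macro-M2. With TMM factors it became 52.7%, 49.5%, 50.8%, 50.4% and 41.2% in those classes, rose from 51.7% to 68.8% in CD4_Tcm-TCF7, and from 59.0% to 69.0% in NK.cells. Subtracting the free-RNA estimate left 387 of 393 T22 calls in i_CAF and 170 of 237 in the S100a8 class. In the latter, T127 calls went from 213 to 312 and the T22 share of calls from 52.7% to 35.3%. In the Ms4a7 class it left 192 of 245 T22 calls and 693 of 694 T127 calls.

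**Figure D2:**
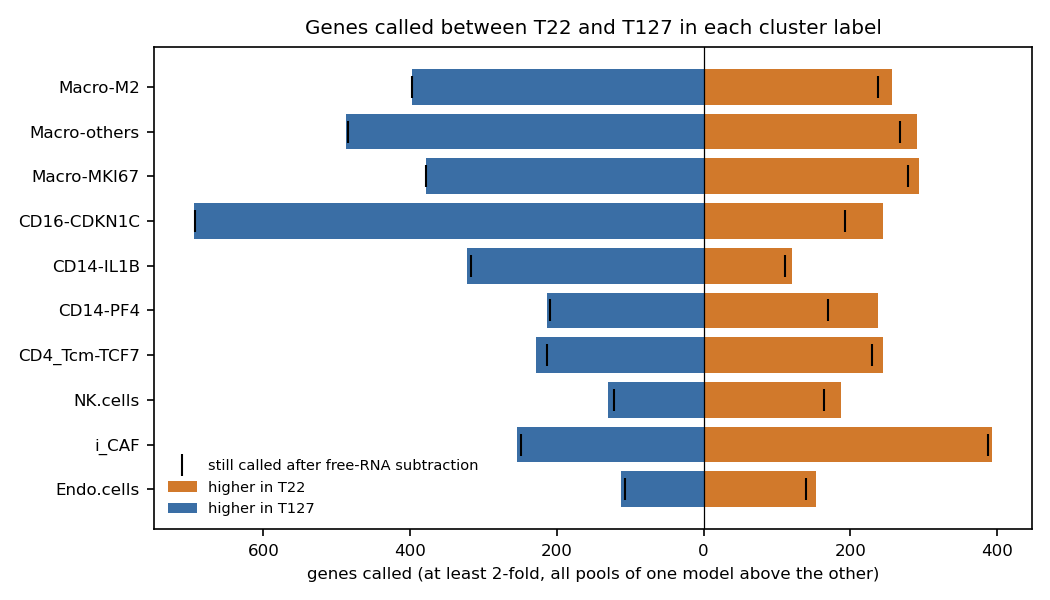
Genes called higher in T22 (orange, right) and higher in T127 (blue, left) in each class; black ticks mark the calls left after the free-RNA estimate was subtracted. The Ms4a7 class (CD16-CDKN1C) has the longest T127 bar, 694 genes, and i_CAF the longest T22 bar, 393 genes.

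Most called genes were called in a few classes. A gene could be called only where it passed the level filter, which 3497 genes did in every class, so these counts partly reflect that filter. Of 1268 genes called higher in T22 in at least 1 class, 824 were called in 1 class, 384 in 2 to 5, 47 in 6 to 9 and 13 in all 10. Of 1559 genes called higher in T127, 871 were called in 1 class, 607 in 2 to 5, 80 in 6 to 9 and 1 in all 10. In all, 175 genes were called in opposite directions in different classes. The malignant cells shared part of it, since 37.9 to 59.9% of the T22 calls of a class were also at least 2-fold higher in T22 malignant cells, against 14.0 to 15.2% of all genes compared. For T127 calls the corresponding values were 31.0 to 44.2% against 16.8 to 20.9%. All classes came from the same 8 captures, so these counts are a description.

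Among 3497 genes that could be compared in every class, 14 were at least 2-fold higher in T22 in all of them and 1 was higher in T127. Pools were also apart in every class for 13 of the 14, and in 8 classes for Rbis. Wfdc18, a secreted whey acidic protein-type gene of the T22 malignant cells, was the most extreme, with log2 ratios of 5.53 to 9.13 across classes and 13.43 in malignant cells. The free-RNA estimate amounted to 35.5 to 160.2% of its level. Wfdc18 is itself a T22 tracer, so this range and its large ratio partly follow from how tracers were chosen. Spp1 (osteopontin, a secreted phosphoprotein) was higher in T127 in all classes, with log2 ratios of -6.33 to -2.0 and -9.36 in malignant cells, and its free-RNA percentage ran from 1.16 to 141% (the upper value in Endo.cells). The other 13 genes behaved differently. They were 7 cytosolic ribosomal protein genes (Rps29, Rps28, Rpl38, Rpl39, Rpl37a, Rps27 and Rpl37), the respiratory chain genes Ndufa3, Atp5k and Pet100, and Rbis, Tsc22d4 and Hist1h4d. Rps29 had log2 ratios of 1.61 to 2.45 across classes and 1.51 in malignant cells, Rpl38 of 1.46 to 1.95 and 1.73, and Ndufa3 of 1.56 to 2.04 and 3.12. For these 13 the free-RNA estimate was 0.894 to 21.2% of the level. Ndufa3, Atp5k and Pet100 were farther apart in malignant cells than in any class, while Rps29 was closer there than in any class. Under the rule set for this comparison, a change of 1 sign and size in every class, malignant cells included, is not read as a difference of cell state. As counted, all 15 genes had 1 sign throughout, and their sizes varied as given. After the free-RNA estimate was subtracted, Wfdc18 turned sign in Macro-M2, Macro-others and the Ms4a7 class. Its log2 ratio became 0 in NK.cells, CD4_Tcm-TCF7 and Endo.cells, and that of Spp1 became 0 in Endo.cells. Without pool 3 of T127 the T22 count was 7 in place of 14, and without pool 2 of T127 Spp1 no longer passed in every class.

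**Figure D3:**
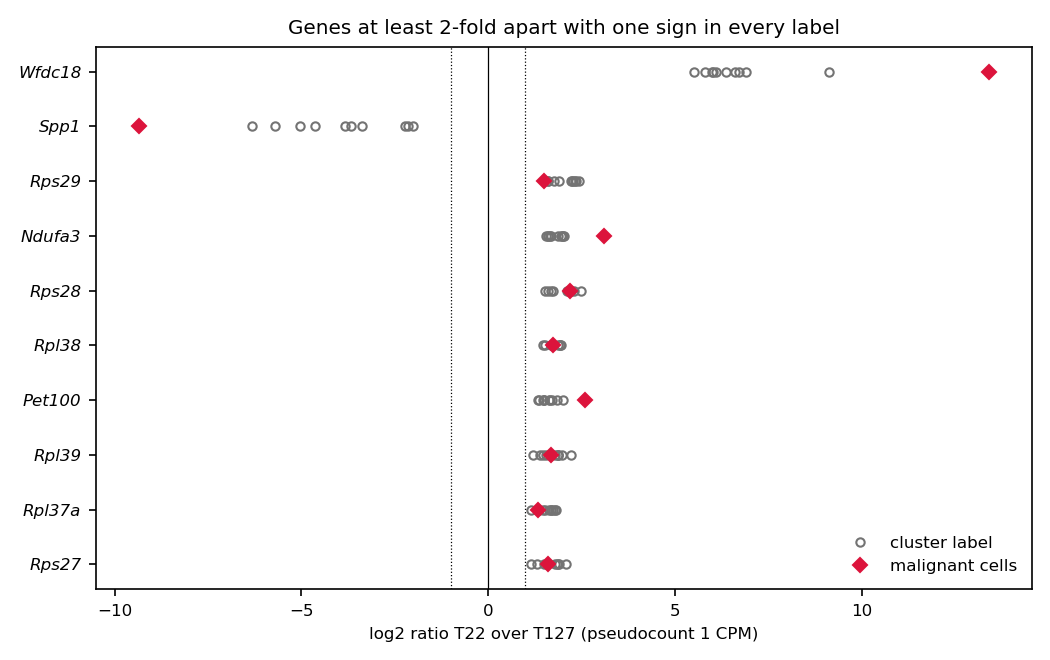
Log2 ratio of T22 over T127 (1 CPM added) for 10 of the genes that were at least 2-fold apart with 1 sign in all classes; grey circles are the 10 classes, red diamonds the malignant cells, and dotted lines mark 2-fold. Wfdc18 and Spp1 lie farthest out and farther still in malignant cells, while the 6 ribosomal protein genes lie between 1.14 and 2.48 in the classes and between 1.33 and 2.18 in malignant cells.

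Cytosolic ribosomal protein genes as a group leaned to T22 in the immune classes. Of 80 compared, 27 were called higher in T22 in the Ms4a7 class (median log2 0.81, all genes -0.26), 18 in Macro-M2 (0.59), 17 in the Xcr1 class (0.57), 16 each in Macro-others and Macro-MKI67, 13 in the S100a8 class and 11 each in CD4_Tcm-TCF7 and NK.cells. Of 79 compared in the stroma, 9 were called in Endo.cells (median 0.07) and 7 in i_CAF, where the median was -0.20 and thus below that of all genes, 0.04. Over all genes the T22 share called was 6.49% in i_CAF, near the 7 of 79 here, and 2.29 to 5.16% in the other classes. None was called higher in T127 in any class. These genes have many near-identical processed copies in the genome, and how their reads were split was not tested.

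In Macro-M2 macrophages (670 cells in T22, 1174 in T127) the T127 cells carried Arg1, Mrc1, Pf4, glycolytic and monocyte genes, and the T22 cells carried Il1a, Ccl3, Ccl4, Apoe and the MHC class II genes that present antigen to CD4 T cells. Of 5590 genes compared, 257 were called higher in T22 (4.6%) and 398 in T127 (7.12%). Arg1 was at 0, 0, 0.513 and 0 CPM in T22 pools 1 to 4 and at 486, 598, 622 and 587 CPM in T127 pools, from 1 and 8139 UMIs. T127 cells thus held 5209 times (95% interval 935 to 205776) the T22 level, and no pool came near the other model. Il1a stood at 324, 358, 233 and 359.6 CPM in T22 and 16.1, 33.0, 17.7 and 13.7 CPM in T127 pools, which put T22 at 15.9 times (95% interval 14.1 to 18.0) the T127 level, with every T22 pool above every T127 pool. Malignant cells did not show either difference at 2-fold, with log2 ratios of 0.46 and 0.64.

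Of 15 alternatively activated macrophage genes compared in Macro-M2, 8 were called higher in T127 and none in T22 (median log2 -1.73, all genes -0.12). Beside Arg1 these were Mrc1 (186 against 1047 CPM, T22 against T127), Chil3 (93.9 against 778 CPM), the platelet factor gene Pf4 (135 against 1942 CPM), the folate receptor gene Folr2 (2.97 against 90.0 CPM), Ccl8, Siglec1 and Msr1. C5ar1, the receptor for complement C5a, was at 153 against 201 CPM and was not called. Among 13 pro-inflammatory genes, Il1a, Tnf (171 against 52.3 CPM), Ccl3 (872 against 241 CPM) and Ccl4 (2534 against 550.3 CPM) were called higher in T22, while Ptgs2 (195 against 701 CPM) and Il18 were higher in T127, and the median was 0.18. Il1b was at 3011 against 3938 CPM, not called. The chemokine ligands divided, with Ccl3, Ccl4 and Cxcl14 higher in T22 and 8 of 18 higher in T127, among them the neutrophil attractant Cxcl3 (8.68 against 493 CPM), the monocyte attractants Ccl2 (401 against 1259.6 CPM) and Ccl7 (121 against 764 CPM), and Ccl17 (17.4 against 322 CPM).

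Metabolic genes of Macro-M2 leaned the same way as Arg1. Of 19 glycolysis and hypoxia genes compared, 15 were higher in T127 and none in T22, with a median of -1.18. They included the glucose transporter Slc2a1 (35.5 against 104 CPM), the glycolytic enzymes Pkm (276 against 859.9 CPM), Ldha (308 against 727 CPM) and Aldoa (342 against 776 CPM), the angiogenic factor Vegfa (73.8 against 372 CPM) and the hypoxia-induced gene Ndrg1 (21.2 against 94.7 CPM). MHC class II presentation went the other way, with 5 of 9 genes higher in T22 (median 1.12), namely H2-Aa (10128 against 3682 CPM), H2-Ab1, Cd74 (12410.4 against 4825 CPM), H2-Oa and their activator Ciita (119 against 51.0 CPM). Lipid handling split within its list, since Apoe (1219 against 195 CPM), Lpl (71.3 against 3.37 CPM), Cd36 and Lipa were higher in T22, and Spp1, Fabp5 (95.2 against 947 CPM), Lgals3, Ctsl and Cd9 in T127. Of the 6 monocyte markers, Ly6c2 (134 against 562 CPM), Vcan (24.5 against 182 CPM) and Fn1 (267 against 1447 CPM) were higher in T127. Also higher in T127 were the neutrophil genes S100a9 (1.32 against 91.7 CPM) and Mmp8 and the red blood cell genes Hba-a1 and Hbb-bs, whose summed list stood at 0.659 CPM in T22 (pools 0.404 to 1.03) and 366 CPM in T127 (pools 13.3 to 1559.8), and their part in the other differences was not tested.

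Other genes at the head of the Macro-M2 comparison were Dnase1l3, a secreted DNase (121 against 3.8 CPM, 31.8 times (95% interval 24.2 to 42.6)), the Toll-like receptor gene Tlr12 (84.4 against 0.492 CPM, 172 times (95% interval 82.9 to 428)) and Npnt, a matrix ligand of integrins (73.4 against 0.633 CPM, 116 times (95% interval 60.7 to 255)), all higher in T22. Higher in T127 were the lectin receptor gene Asgr2 (8.68 against 308 CPM, 35.5 times (95% interval 28.5 to 45.0)) and AA467197 (3.07 against 191 CPM, 62.2 times (95% interval 42.9 to 93.7)). Pools of the models did not overlap for any of these 5 genes, as a call requires. AA467197 was also lower in T22 malignant cells (log2 -7.17), and its free-RNA percentage in T127 Macro-M2 was 0.992%.

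Macro-others (1244 and 213 cells) showed the same opposition of Il1a, Ccl3 and Ccl4 in T22 against Arg1, Mrc1 and monocyte genes in T127, together with dendritic cell genes in T127. In this class 290 of 5624 genes were called higher in T22 (5.16%) and 488 in T127 (8.68%). Il1a was at 430.1, 467, 473 and 548 CPM in T22 pools against 1.62, 11.3, 15.1 and 5.99 CPM in T127 pools, 54.7 times (95% interval 36.4 to 86.4). Ccl17, a chemokine of dendritic cells that attracts T cells, was at 2.38, 2.69, 3.23 and 0.810 CPM in T22 and 2386, 1111, 823 and 1499 CPM in T127 pools. That is 632 times (95% interval 447 to 925) more in T127, where pool 1 was the highest and pool 3 the lowest, and malignant cells had the opposite sign (log2 3.99). Mrc1 was at 37.2, 52.4, 37.3 and 49.7 CPM in T22 and 716, 759.9, 739 and 570.4 CPM in T127 pools, 15.6 times (95% interval 14.3 to 17.1), again without overlap. Tlr12 (118 against 2.29 CPM, 51.6 times (95% interval 23.7 to 141)) and Npnt (105 against 2.68 CPM, 39.2 times (95% interval 19.0 to 97.7)) were higher in T22 as in Macro-M2.

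Of 13 alternatively activated genes compared in Macro-others 8 were higher in T127 (median -1.86, all genes -0.17), including Arg1 (0.0704 against 192 CPM) and Chil3 (10.8 against 188 CPM). The pro-inflammatory list split evenly, with Il1a, Tnf (190.2 against 53.5 CPM), Ccl3 (1188 against 149 CPM) and Ccl4 (3339 against 571 CPM) higher in T22 and Il12b, Ptgs2, Cd40 and Ccl5 (109 against 1001 CPM) in T127. Monocyte markers were lower in T22 for 4 of 6 genes, Plac8 (46.2 against 403 CPM), Fn1 (20.0 against 443 CPM), Ly6c2 (5.57 against 156 CPM) and Vcan, and the macrophage genes Csf1r (1285 against 506 CPM) and C1qc (4047 against 1872 CPM) were higher in T22. Dendritic cell markers called here were Cd209a (5.64 against 227 CPM), Ccr7 (11.7 against 165 CPM) and Fscn1 (6.83 against 159 CPM), which were 3 of 4 compared and all higher in T127, beside Ccl22 (12.6 against 288 CPM) and Plet1 (11.3 against 704 CPM). The whole dendritic list of 8 summed to 47.7 CPM in T22 (pools 31.6 to 82.3) and 653 CPM in T127 (pools 443 to 895), and the red blood cell list to 0.704 CPM in T22 (pools 0.297 to 0.881) and 2812 CPM in T127 (pools 6.28 to 10984). Epcam, an adhesion molecule of epithelial and some dendritic cells, was at 40.4 against 579 CPM. Krt5 and Krt14 were at 0 and 0 CPM in T127, but these T22 tracers are nearly absent from all T127 cells by the tracer rule. Their level therefore cannot show whether epithelial RNA was present in T127. Hexokinase Hk2 (251 against 84.5 CPM) was the 1 glycolysis and hypoxia gene of 19 higher in T22, and 8 were higher in T127, among them Pfkp (12.2 against 158 CPM) and Ndrg1 (2.40 against 133 CPM). The deposited name thus joins cells led by different genes in the models, and how much of the difference comes from that mixture was not tested.

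Cycling macrophages (Macro-MKI67, 330 and 198 cells) differed in Apoe, interferon gamma genes and Il1a, higher in T22, and in Ccl17, Arg1 and glycolytic genes, higher in T127, while proliferation genes gave no call. Calls numbered 293 for T22 (4.93%) and 379 for T127 (6.37%) of 5949 genes. Apoe (apolipoprotein E) was at 536, 633, 567 and 642 CPM in T22 and 27.1, 36.7, 30.9 and 63.7 CPM in T127 pools, 15.5 times (95% interval 13.3 to 18.2). T22 malignant cells also held more of it (log2 8.78), and the free-RNA percentage was 3.43%. AW112010, an interferon-induced transcript, was at 732, 484, 540.3 and 567 CPM against 19.6, 58.0, 36.9 and 44.7 CPM, 14.5 times (95% interval 12.4 to 17.0). Il1a was at 234, 288, 126 and 268 CPM in T22 and 15, 18.0, 13.7 and 8.94 CPM in T127 pools. In the other direction Ccl17 stood at 9.97, 17.7, 1.54 and 4.79 CPM in T22 and 1388, 557, 378 and 883 CPM in T127 pools, 95.4 times (95% interval 70.7 to 132). None of these 4 genes overlapped between the models, as a call requires.

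All 14 proliferation genes were compared in Macro-MKI67, none was called, and their median was 0.04 (all genes -0.14), with Mki67 at 1055 against 703 CPM and Top2a at 1088 against 746 CPM. Of 10 interferon gamma response genes 5 were higher in T22, Gbp2 (70.4 against 14.5 CPM), Gbp3 (99.1 against 20.2 CPM), Cxcl10 (457 against 194 CPM), Serpina3g (64.3 against 2.53 CPM) and Ciita, with a median of 1.19. In the glycolysis and hypoxia list 9 of 19 were higher in T127 (median -1.02), for example Aldoa (281 against 795 CPM) and Pkm (323 against 837 CPM). Alternatively activated genes went both ways, with 7 of 12 higher in T127, among them Arg1 (2.28 against 213 CPM), Mrc1 (121 against 616 CPM), Chil3, Pf4 (75.5 against 679 CPM) and C5ar1 (48.9 against 103 CPM), and Maf and Selenop higher in T22. Heat shock genes Hspa1a (156 against 37.9 CPM) and Hspa1b (145 against 18.1 CPM), near-identical copies of each other, were higher in T22.

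The Ms4a7 class (CD16-CDKN1C, 4205 and 402 cells) showed the longest list of differences. In T127 it carried Arg1, monocyte, interferon and immediate early genes, and in T22 it carried MHC class II, proliferation and Il1a transcripts. Of 5581 genes, 245 were called higher in T22 (4.39%) and 694 in T127 (12.4%). Ly6c2, which marks freshly recruited monocytes, was at 40.0, 26.3, 23.7 and 52.5 CPM in T22 and 1029.9, 745, 739 and 349.7 CPM in T127 pools, 20.7 times (95% interval 18.8 to 22.8). Arg1 was at 0, 1.06, 0.893 and 0.503 CPM and 367, 142, 325 and 226 CPM, from 10 and 546 UMIs. Il1a was at 134, 153, 166 and 134 CPM in T22 and 0, 10.9, 13.9 and 17.0 CPM in T127 pools, 14.0 times (95% interval 9.15 to 22.7). Npnt had no UMI in T127, where 3 counts over the model are taken as the limit, and 50.4, 52.3, 56.5 and 66.6 CPM in T22 pools, at least 37.7-fold higher.

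Monocyte markers were higher in T127 for 5 of 6 genes in this class (median -2.68, all genes -0.26), with Plac8 at 292 against 1647 CPM, Cd14 at 649 against 1712 CPM and Fn1 at 54.1 against 667 CPM. Of 13 alternatively activated genes 10 were higher in T127 (median -2.57), including Mrc1 (67.2 against 802 CPM), Chil3 (46.0 against 600.4 CPM), Pf4 (126 against 1219.8 CPM) and C5ar1 (72.2 against 187 CPM). Of 20 genes of the type I interferon response 11 were higher in T127 and none in T22 (median -1.32), for example the regulator Irf7 (131 against 468 CPM), the antiviral genes Oasl2 (24.1 against 93.0 CPM) and Ifitm3 (598 against 2581 CPM), and Rtp4. Immediate early and heat shock genes were higher in T127 for 15 of 20, Junb (631 against 2249 CPM), Fos (738 against 2011 CPM) and Ier3 (72.6 against 868 CPM) among them, and centring the ratios on the median left 10. Chemokine ligands Ccl2 (79.9 against 988 CPM), Ccl7 (29.7 against 590.4 CPM) and Ccl12 (131 against 519.9 CPM) were among 9 of 18 higher in T127. Cxcl13, which attracts B cells, was at 4.94, 6.63, 4.24 and 37.7 CPM in T22 and 445, 56.8, 307 and 561 CPM in T127 pools, so its lowest T127 pool lay close to its highest T22 pool.

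Higher in T22 in the Ms4a7 class were 4 of 9 MHC class II genes (median 0.96), H2-Aa (9941 against 2289 CPM), H2-Ab1 (11368 against 3407 CPM), Cd74 (11706 against 3237 CPM) and H2-Oa, and 7 of 11 proliferation genes, such as Top2a (147 against 26.0 CPM) and Mki67 (111 against 29.0 CPM). Cd207 (langerin) was at 155 against 14.5 CPM, 10.7 times (95% interval 7.41 to 16), with the highest T127 pool at 48.6 CPM. The metallothionein Mt2 was at 110.1 against 8.00 CPM, but 49.1% of its T22 level was matched by the free-RNA estimate, and with 2 times that estimate subtracted the sign turned. Krt5 and Krt14, T22 tracers that T127 cells nearly lack by the tracer rule, were at 54.0 and 53.2 CPM in T22 and at 0 in T127. Cells with fewer than 1000 genes were 51.7% of the T22 and 18.2% of the T127 cells of this class. Leaving them out, a choice made after seeing the data, gave 231 and 578 calls in place of 245 and 694.

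The Xcr1 class (CD14-IL1B, 143 and 144 cells) held dendritic cell markers at a like summed level in both models. Cxcl9, Dnase1l3 and Il1a were among the genes higher in T22, and Asgr2, Ifitm1, Mrc1 and Il1b among those higher in T127. The 8 dendritic cell markers summed to 1662 CPM in T22 (pools 1512 to 1836) and 1607 CPM in T127 (pools 1472 to 2014), with Clec9a (155 against 68.1 CPM) called higher in T22 and Cd209a (16.4 against 208 CPM) in T127, and 1 of 9 MHC class II genes, H2-DMb2 (132 against 356 CPM), was called. Calls numbered 120 for T22 (2.29%) and 323 for T127 (6.17%) of 5233 genes. Cxcl9, a chemokine induced by interferon gamma, was at 663, 355, 111 and 108 CPM in T22 and 11.3, 22.4, 1.60 and 34.7 CPM in T127 pools, 17.3 times (95% interval 12.8 to 23.9). Dnase1l3 was at 773, 542, 508 and 497 CPM in T22 pools, pool 1 being apart from the others, and 100.2, 89.7, 92.8 and 64.1 CPM in T127 pools. Asgr2 was at 4.34, 7.80, 8.39 and 0 CPM and 675, 422, 1564 and 1502 CPM, 205 times (95% interval 124 to 367), and Ifitm1, a membrane protein of the interferon response, at 15.9, 5.20, 8.39 and 8.02 CPM and 671, 701, 293 and 939 CPM, 71.3 times (95% interval 48.5 to 109). All pools of the models were apart for these genes, as a call requires.

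Il1b, for which this cluster was named, was at 1035 against 2276 CPM and was called higher in T127, the 1 class of 10 in which it was. Cxcl2 (601 against 2322 CPM) and Ptgs2 (71.8 against 212 CPM) were also higher in T127, and Il1a (60.4 against 4.03 CPM) and Cxcl9 in T22, so that the 14 pro-inflammatory genes had a median of 0.13 (all genes -0.21). Mrc1 was at 5.36 against 284 CPM, 53.0 times (95% interval 31.9 to 95.3), and the nonclassical MHC gene H2-M2 at 169 against 18.9 CPM, 8.93 times (95% interval 6.61 to 12.3) and higher in T22. The complement genes C1qa (648 against 224 CPM), C1qb (364 against 119.6 CPM) and C1qc (325 against 78.9 CPM), which mark macrophages, were higher in T22. After subtraction the pools were no longer all apart for C1qb, whose log2 ratio went from 1.60 to 1.52. Mitotic genes were higher in T127 for 6 of 14 proliferation genes, for example Ccnb2 (42.2 against 104 CPM) and Birc5 (82.2 against 170.0 CPM), and centring on the median left 4. Of 17 genes compared from the glycolysis and hypoxia list, 3 were called, Pfkp, Eno1 (93.6 against 222 CPM) and Ndrg1 (39.3 against 204 CPM), all higher in T127. Hif1a and Hilpda, not counted among these, were also called higher in T127.

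The S100a8 class (CD14-PF4) was the smallest, with 66 cells in each model, 14 to 23 per T22 pool and 10 to 27 per T127 pool, and its differences include genes of other cell types. Calls were 237 for T22 (4.01%) and 213 for T127 (3.6%) of 5912 genes. Krt14, a basal keratin of the T22 malignant cells, was at 623, 847, 154 and 284 CPM in T22 pools and had no UMI in T127, at least 109-fold higher. As a T22 tracer, Krt14 was nearly absent from T127 cells by the tracer rule. The 10 epithelial markers summed to 2207 CPM in T22 (pools 389 to 3411) and 873 CPM in T127 (pools 547 to 1045), the neutrophil markers to 4034 CPM in T22 (pools 149 to 10609) and 1237 CPM in T127 (pools 29.2 to 2235), and the red blood cell markers to 1.32 CPM in T22 (pools 0 to 5.51) and 10018 CPM in T127 (pools 0 to 23579). Whole malignant cells, doublets and free RNA cannot be told apart here. Nfib (277 against 6.87 CPM), a transcription factor gene, and Krt7 (161 against 0 CPM), a keratin gene, were higher in T22 in this class and in malignant cells (log2 4.27 and 6.32). The matrix genes Col4a1 (252 against 9.61 CPM) and Sparc (465 against 16.5 CPM) were called higher in T22 as well. After the free-RNA estimate was subtracted their pools were no longer all apart, at log2 ratios of 4.90 and 7.78 in place of 4.58 and 4.74.

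Other differences of the S100a8 class were in myeloid genes. Saa3, an acute phase protein, was at 358, 108, 174 and 337 CPM in T22 and 0, 0, 3.23 and 5.45 CPM in T127 pools, 96.7 times (95% interval 26.4 to 804). The lectin genes Asgr2, Mgl2 and Mrc1 were higher in T127. Asgr2 was at 0, 0, 13.4 and 3.59 CPM in T22 and 1038, 769, 935 and 769 CPM in T127 pools, from 3 and 648 UMIs, Mgl2 at 3.96 against 390.0 CPM and Mrc1 at 11.9 against 468 CPM. Of 18 glycolysis and hypoxia genes 6 were higher in T127 (median -1.02, all genes -0.05), among them Tpi1 (104 against 308 CPM) and Vegfa (27.7 against 183 CPM). Cxcl2, a neutrophil attractant, was at 283 against 1947 CPM. Pools overlapped for S100a8 (1586 against 299 CPM) and S100a9 (1901 against 746 CPM), which were not called.

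Set side by side, several genes ran through the myeloid classes. In the order Macro-M2, Macro-others, Macro-MKI67, Ms4a7 class, Xcr1 class and S100a8 class, Il1a had log2 ratios of 3.92, 5.62, 3.92, 3.69, 3.61 and 2.68 and was called in all but the last. Dnase1l3 had 4.66, 5.11, 5.81, 3.34, 2.75 and 6.53, Mrc1 -2.49, -3.94, -2.34, -3.56, -5.49 and -5.19, Asgr2 -5.00, -6.08, -5.89, -2.57, -7.43 and -7.49 and AA467197 -5.56, -7.19, -6.23, -4.97, -5.77 and -6.68, each called in all 6. Cd207, higher in T22, and Ccl17, Plet1 and Mgl2, higher in T127, were called in the same 6 classes and in no other. Arg1 had -9.01, -7.49, -6.02, -7.40, -4.65 and -7.96 and was called in the first 4. In CD4_Tcm-TCF7, NK.cells, i_CAF and Endo.cells, Il1a had 1.30, 1.2, 0.51 and 0.24 and Asgr2 0.17, 0.28, -0.24 and 0.00, with no call. Mrc1 had -1.78, 0.52, -4.71 and -3.01 there, also with no call, at low levels (at most 43.6 CPM, in T127 i_CAF). AA467197 was called there too, in NK.cells and Endo.cells, as in malignant cells (log2 -7.17). C5ar1 was called in Macro-MKI67 and the Ms4a7 class, both higher in T127.

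**Figure D4:**
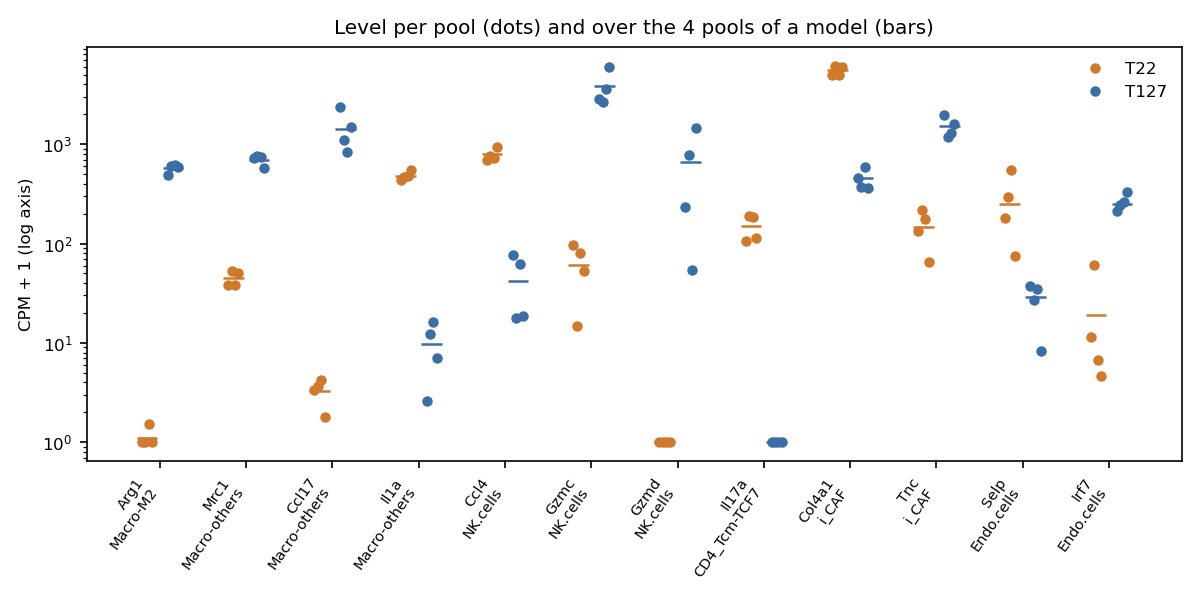
Level of 12 genes in the class named under each, as CPM plus 1 on a log axis; dots are the 4 pools of T22 (orange) and T127 (blue), bars the level over the 4 pools. The models do not overlap for any of the 12, which were chosen from called genes and so are apart by rule. Gzmd in T22 NK.cells and Il17a in T127 CD4_Tcm-TCF7 cells had no UMI.

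CD4_Tcm-TCF7 T cells (2438 and 204 cells) held Il17a and some other genes of IL-17-producing or gamma delta T cells in T22, and naive, memory and cytotoxic genes in T127. Of 5598 genes 244 were called higher in T22 (4.36%) and 228 in T127 (4.07%). Il17a was at 105, 188, 185 and 112 CPM in T22 pools and had no UMI in T127, at least 32.0-fold higher. Of 5 genes listed for gamma delta T cells, among them Il17a itself, 4 were higher in T22. Beside Il17a these were Tcrg-C1 (222 against 20.0 CPM), Cd163l1 (40.6 against 3.07 CPM) and Trdv4. Trdc leaned the other way, at 129 against 241 CPM, and was not called. Tmem176a, often seen in IL-17-producing lymphocytes, was at 463, 446, 487 and 462 CPM in T22 and 49.7, 6.73, 0 and 19.6 CPM in T127 pools, 25.2 times (95% interval 14.4 to 48.8), but it was called higher in T22 in 7 of 10 classes and was higher in malignant cells (log2 6.95). Cysltr1, a leukotriene receptor, was at 151, 157, 162 and 137 CPM in T22 and had no UMI in T127. The deposited gamma delta T cells (Tgd) were a separate cluster of 387 T22 and 17 T127 cells and were not compared.

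In T127 CD4_Tcm-TCF7 cells, 10 of 11 naive and memory genes were higher (median -2.15, all genes -0.07). Ccr7, a chemokine receptor that guides T cells into lymph nodes, was at 71.4, 71.7, 75.7 and 73.4 CPM in T22 and 639.5, 431, 381 and 427 CPM in T127 pools, 6.33 times (95% interval 5.56 to 7.19), with no overlap between the models. S1pr1 (78.1 against 350.4 CPM) and the transcription factors Lef1 (47.9 against 352 CPM), Tcf7 (174 against 472 CPM) and Bach2 (16.2 against 93.8 CPM) followed, and Il7r was the member not called, at 902 against 968 CPM. Among 17 cytotoxic genes 7 were higher in T127, for instance Prf1 (39.3 against 343 CPM), Gzmb (174 against 504 CPM), Eomes (33.1 against 139.9 CPM) and Ncr1 (78.9 against 278 CPM), and Ccl5 (1236 against 539 CPM) was higher in T22. Gzmc was at 15.5, 11.7, 20.0 and 40.6 CPM in T22 and 554, 559, 1061 and 58.9 CPM in T127 pools, so pool 4 of T127 was far below the other 3. Ncr1 and Eomes are NK cell markers, of which 4 of 6 were higher in T127, and the 7 listed summed to 521 CPM in T22 (pools 485 to 543) and 1369 CPM in T127 (pools 945 to 1696). Their part in the cytotoxic difference was not tested. Cd4 was at 47.8 against 108 CPM, higher in T127, and Cd40lg, a helper T cell ligand, at 212 against 21.5 CPM, higher in T22. The CD8 markers were not called and summed to 141 CPM in T22 (pools 121 to 168) and 243 CPM in T127 (pools 146 to 384).

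Of other genes in these T cells, Irf8 was at 59.0, 51.8, 56.3 and 58.1 CPM in T22 and 433, 633, 781 and 603 CPM in T127 pools, 10.9 times (95% interval 9.70 to 12.3). Penk, which encodes enkephalin, stood at 902, 6.73, 12.7 and 24.5 CPM in T127 pools and 0.243, 2.48, 1.18 and 0.742 CPM in T22, so pool 1 of T127 decided its level. Hk2 (243 against 40.0 CPM) was higher in T22 and Vegfa (38.8 against 237 CPM) in T127. Igfbp5, at 155 CPM in T22 and 0 in T127, had a free-RNA percentage of 73.0%, and the MHC class II genes Cd74 (98.3 against 29.2 CPM), H2-Aa and H2-Ab1, though called higher in T22, had free-RNA percentages of 215 to 263%. None of these 3 was called after subtraction, where the log2 ratio of Cd74 turned from 1.72 to -1.40. T127 cells were shallow, with a median of 2803.5 UMIs against 6403 in T22, and 30.4% of them had fewer than 1000 genes. Thinned to 3000 UMIs, which left out 118 of 204 T127 and 222 of 2438 T22 cells, the class had 7 naive and memory genes higher in T127 and a median of -1.51.

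NK cells (1193 and 141 cells) differed in which effector genes they carried. T22 cells held more Gzma, Ifng and the chemokines Ccl3, Ccl4 and Ccl5, and T127 cells more Gzmb, Gzmc, Gzmd, Gzme and Prf1. Calls numbered 187 for T22 (3.34%) and 130 for T127 (2.32%) of 5599 genes. Gzmc was at 96.0, 13.9, 79.3 and 51.4 CPM in T22 pools and 2844, 2678, 3604 and 5914 CPM in T127 pools, 64.8 times (95% interval 59.3 to 71.0). Gzmd had no UMI in T22 and 230.0, 780.0, 53.3 and 1441 CPM in T127 pools, at least 2042-fold higher, though its T127 pools spread widely. Gzma was at 3417, 3176, 4403 and 3845 CPM in T22 and 2229.5, 1339, 1469 and 1623 CPM in T127 pools, 2.24 times (95% interval 2.13 to 2.36) and in the other direction. Ccl4 was at 688, 766, 731 and 940.2 CPM in T22 and 75.1, 16.7, 60.9 and 17.5 CPM in T127 pools, 19.2 times (95% interval 14.1 to 26.7). Gzmc, Gzmd and Gzme are near-identical neighbours in sequence, so how reads divide among them is uncertain, while all 3 were higher in T127.

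Of 18 cytotoxic genes compared in NK.cells 6 were higher in T127, Gzmb (434 against 1472 CPM), Gzmc, Gzmd, Gzme, the pore-forming Prf1 (473 against 1252 CPM) and Cst7 (114 against 464 CPM), and 3 in T22, Gzma, Ifng (164 against 39.0 CPM) and Ccl5 (3581 against 795 CPM), with a median of -0.30 (all genes -0.01). Of 6 chemokine ligands compared 4 were higher in T22, Ccl3 (137 against 16 CPM), Ccl4, Ccl5 and Cxcl10 (199 against 53.0 CPM), and none in T127. Ccl1 was at 155, 49.4, 86.4 and 65.6 CPM in T22 and had no UMI in T127, at least 29.9-fold higher. Pacsin1, an endocytosis gene, was at 107 against 2.00 CPM, 53.3 times (95% interval 14.7 to 441), also higher in T22. NK cell markers other than Gzma were not called, with Ncr1 at 883 against 1048 CPM and Klrd1 at 654 against 836 CPM, and the list had a median of 0.19. Plac8 (34.9 against 1063 CPM) was higher in T127, and Itgae (83.1 against 3.00 CPM), an integrin of tissue-resident lymphocytes, Il7r (149 against 39.0 CPM) and the cycling genes Mki67 (407 against 162 CPM) and Top2a in T22. Cd3e (131 against 17.0 CPM) was higher in T22, whereas the 6 T cell markers together stood at 1350.2 CPM in T22 (pools 1201 to 1479.7) and 1459.8 CPM in T127 (pools 961 to 1835). Macrophage markers summed to 137 CPM in T22 (pools 90.2 to 191) and 24.0 CPM in T127 (pools 8.34 to 45.7), and their part in the chemokine difference was not tested. Igfbp5 (113 CPM in T22, 0 in T127) was matched to 82.9% by free RNA.

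In i_CAF fibroblasts (291 and 95 cells) matrix genes differed. T22 cells carried basement membrane collagens and T127 cells tenascin, complement, glycolytic and interferon genes, while Col1a1, Col1a2 and Col3a1, the main fibrillar collagen genes, were not called. Of 6060 genes 393 were higher in T22 (6.49%) and 254 in T127 (4.19%). Col4a1, a chain of basement membrane collagen IV, was at 4994, 6130.4, 5011 and 5898 CPM in T22 and 460.2, 372, 586 and 363 CPM in T127 pools, 12.2 times (95% interval 11.4 to 13.1). Tnc (tenascin C) was at 134, 215, 174 and 63.9 CPM in T22 and 1959.8, 1183, 1293 and 1603 CPM in T127 pools, 10.3 times (95% interval 9.61 to 11.1). Both were apart in all pools, as a call requires. Of 22 collagen and matrix genes, Col4a1, Col4a2 (2489 against 241 CPM), Col15a1 (1714 against 202 CPM) and Col18a1 (177 against 55 CPM) were higher in T22 and Tnc, Thbs2 (419.9 against 1149.6 CPM) and Col12a1 (670.1 against 1679 CPM) in T127, and the median was 0.01 (all genes 0.04). The vessel genes Plvap (118 against 4.67 CPM), Flt1 (38.5 against 4.67 CPM) and Mcam (63.6 against 7.27 CPM) were also called higher in T22, while the 7 endothelial markers summed to 4.65 CPM in T22 (pools 2.95 to 6.60) and 16.6 CPM in T127 (pools 10.7 to 24.9), with 3 of them at 0 in each model, Cdh5 among these. Col1a1 was at 13273 against 17726 CPM and Col3a1 at 19903 against 24513 CPM. Pericyte genes Notch3 (66.4 against 5.19 CPM), Cspg4 and Pdgfrb (509 against 165 CPM) were higher in T22 and Abcc9 in T127, and the 6 pericyte markers summed to 638 CPM in T22 (pools 616 to 670.4) and 240.3 CPM in T127 (pools 190.3 to 296).

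Complement genes of i_CAF were higher in T127 for 5 of 9, C3 (163 against 488 CPM), C4b (126.9 against 573 CPM), Cfb (82.7 against 356 CPM), C2 and the inhibitor Serping1 (980.1 against 2246 CPM), with a median of -1.57. Glycolysis and hypoxia genes were higher in T127 for 11 of 19 (median -1.26), among them Pkm (214 against 673 CPM), Gapdh (296 against 712 CPM) and Vegfa (37.9 against 162 CPM). Type I interferon genes were higher in T127 for 6 of 13, such as Isg15 (109.7 against 375 CPM) and Irf7 (27.6 against 159 CPM), and none was higher in T22. The chemokines Cxcl1 (604 against 1638 CPM), Ccl7 (307 against 1020.3 CPM) and Cxcl2 (55.3 against 327 CPM) were higher in T127. Higher in T22 were Col11a1 (1391 against 73.2 CPM, 19.0 times (95% interval 16.1 to 22.6)), a collagen of reactive fibroblasts, Tnmd (tenomodulin, 346 against 1.04 CPM, 333 times (95% interval 92.1 to 2751)), Ramp1 (202 against 2.08 CPM, 97.1 times (95% interval 37.8 to 357)) and Igfbp2. Igfbp2 was at 631, 198, 426 and 709 CPM in T22 and 0, 2.14, 0 and 13.9 CPM in T127 pools, and as a malignant-cell tracer it stood here at 142% of its whole-pool level, where the median tracer stood at 1.83%.

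Granzyme transcripts also appeared in i_CAF of T127. Gzme had no UMI in T22 and 137, 399.9, 236 and 219 CPM in T127 pools, and Gzmc likewise none and 83.3, 535, 91.9 and 289 CPM. Gzmb was at 25.8, 575, 36.4 and 9.24 CPM in T127 pools, pool 2 far above the others. Other cytotoxic lymphocyte genes in the T127 i_CAF were at 0 CPM for Nkg7, 0 CPM for Prf1, 0.519 CPM for Ncr1 and 0.519 CPM for Gzma. The free-RNA percentage in T127, which traces malignant cells and not lymphocytes, was 0.161% for Gzmc and 0.0245% for Gzme.

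Endothelial cells (88 and 118 cells) had the fewest genes called, with 153 higher in T22 (2.43%) and 113 in T127 (1.8%) of 6291. Interferon genes were higher in T127, and the adhesion gene Selp and the matrix gene Itih5 in T22, while the 7 endothelial markers were not called and summed to 7676 CPM in T22 (pools 7237 to 8096) and 7689 CPM in T127 (pools 7324 to 8406). Irf7 was at 10.4, 60.1, 5.80 and 3.66 CPM in T22, pool 2 being the highest, and 209, 242, 262 and 328 CPM in T127 pools, 13.6 times (95% interval 8.10 to 24.6). Of 20 type I interferon genes 8 were higher in T127 and none in T22 (median -1.60, all genes -0.03), including Ifit3 (4.87 against 64.5 CPM), Zbp1 (8.52 against 102 CPM), Ifi44 (52.4 against 198 CPM) and Bst2 (405 against 942 CPM). Selp (P-selectin, which captures leukocytes) was at 182, 295, 551 and 73.2 CPM in T22 and 36.6, 25.8, 33.7 and 7.28 CPM in T127 pools, 8.79 times (95% interval 6.03 to 13.2), the lowest T22 pool still above the highest T127 pool. Itih5 was at 529, 481, 441 and 527 CPM in T22 and 49.8, 25.8, 41.1 and 21.9 CPM in T127 pools, 14.1 times (95% interval 10.2 to 20.1). The carboxylesterase gene Ces2e (105 against 8.84 CPM, 11.9 times (95% interval 6.14 to 25.6)) and Npnt (275 against 33.6 CPM, 8.20 times (95% interval 5.79 to 11.9)) were also higher in T22. Among 19 angiogenic and activation genes, Selp was the 1 called in T22 and Pgf, a placental growth factor (4.87 against 71.6 CPM), the 1 in T127, and the adhesion genes Sele (144 against 17.7 CPM) and Vcam1 (67.0 against 8.84 CPM) were not called. Among 9 capillary genes, Rgcc (734 against 245 CPM) was higher in T22 and the fatty acid carrier Fabp4 (2147 against 5424 CPM) in T127. Ms4a6d, mostly known from myeloid cells, had no UMI in T22 and 213, 197, 232 and 219 CPM in T127 pools, at least 58.1-fold higher, and Lef1 had 40.2 against 0 CPM. S100a4 (15.8 against 448 CPM) was also higher in T127, with 32.8% of its T127 level and 128% of its T22 level matched by free RNA. The class had 20 to 23 cells per T22 and 20 to 38 per T127 pool, so single pools rest on few cells.

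Across all 10 classes, 3 lists showed the range of the contrast. Glycolysis and hypoxia genes were called higher in T127 in every class, 15 of 19, 8 of 19, 9 of 19, 7 of 19, 3 of 17, 6 of 18, 4 of 18, 4 of 18, 11 of 19 and 2 of 19 compared, in the order Macro-M2, Macro-others, Macro-MKI67, Ms4a7 class, Xcr1 class, S100a8 class, CD4_Tcm-TCF7, NK.cells, i_CAF and Endo.cells, against at most 2 higher in T22. Type I interferon genes gave no T22 call in any class, and 5 of 21, 4 of 20, 0 of 19, 11 of 20, 3 of 13, 3 of 14, 5 of 16, 3 of 16, 6 of 13 and 8 of 20 compared were called higher in T127 in that order, with medians below that of all genes throughout. Over all genes the T127 share called in that order was 7.12%, 8.68%, 6.37%, 12.4%, 6.17%, 3.6%, 4.07%, 2.32%, 4.19% and 1.8%, against which these counts are to be read. MHC class I presentation, whose products display peptides to CD8 T cells, gave no T22 call and 1 T127 call each in CD4_Tcm-TCF7 (Tap1) and Endo.cells (Psmb8), with medians from -0.47 to 0.11. Class I genes outside this list were called too, such as H2-Q7 higher in T127 in Endo.cells (log2 -1.82) and the nonclassical H2-M2 higher in T22 in 4 classes. For glycolysis and hypoxia, T127 malignant cells leaned the same way as the classes, with a median of -0.54 over the members compared in Macro-M2, and for the type I interferon list the corresponding median was -1.52. With ratios centred on the median gene, the T127 calls in these lists were 13, 5, 6, 4, 2, 4, 4, 4, 11 and 2 and 4, 4, 0, 8, 1, 2, 5, 3, 7 and 6.

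The remaining 8 non-malignant names had too few cells in one model to be compared. Macro-M1 held 1203 T22 and 3 T127 cells, Tprf-MKI67 418 and 1, CD8_Tn-CCR7 257 and 18, my_CAF 129 and 8, CD4_Treg-FOXP3 5 and 149, pDC 35 and 136, Tgd 387 and 17, and B.cells 38 and 42. Inflammatory macrophages of T22 that were deposited as Macro-M1 are therefore absent from the classes above, and regulatory T cells of T127 likewise, so each class gives a contrast within its name and not of the whole infiltrate.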

How the data were processed

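Each of the 8 short-term pools was deposited as a matrix of raw UMI counts per gene and cell. Per the labels and the methods, the authors had counted reads with Cell Ranger 6.0.0 on GRCm38, introns included, removed doublets with Scrublet, and named clusters. Those names were used as given, and doublets were not called again. Counts of cells of one name were summed per pool and divided by their total (CPM), with 32285 genes and no normalization across classes. Log2 ratios had 1 CPM added.

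Levels were compared as stated in the report, with no test, since each model is 1 sample. Genes named in the text were up to 4 per direction with the largest ratio (10 CPM added) among those called in a class. They had at least 50 CPM in the higher model and were still called after the free-RNA estimate was subtracted. Low free-RNA percentages of these genes were thus partly selected for. Members of fixed gene lists, the leading genes of each class, and genes apart in every class were named as well. Which list members are printed was decided after their values were seen. Members and lists were chosen with earlier results of these data known. The study's methods state a filter of 1000 genes per cell, which 2571 (11.1%) of the short-term cells do not pass. Its reporting summary gives a lower limit, which every short-term cell passes, the fewest genes in a cell being 428. All cells were kept. Alternatives were other level and fold limits, no limit, centring, TMM factors (edgeR 4.0.16), subtraction of the free-RNA estimate, thinning to 3000 UMIs per cell, removal of the top 5% of cells by UMIs, and leaving out each pool. A minimum of 1000 genes per cell, looser tracers and subtraction of 2 times the estimate were added after the data were seen. The summing and calling steps were tested on simulated data with counting error only. Real pools spread more than that, so the simulation cannot show how often unchanged genes are called here. Sums were made with pandas 2.3.3 and numpy 2.4.6, intervals with scipy 1.17.1 and plots with matplotlib 3.10.9, under Python 3.11.15 and R 4.3.3. The UMIs of a compared class in a model, 650625 to 16434682, set the precision of its levels, and intervals and floors cover counting error only.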

Additional observations from a re-analysis of the deposited data

Results flagged for a closer look

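In 3 places 1 pool stood apart from the other 3 of its model, among 80 pairs of named gene and class checked in the model where the gene was higher, and chance alone sets 1 pool apart in about 1 in 20 such groups of 4 (Dixon's ratio at its 95% limit). In the Xcr1 class, Dnase1l3 was at 773 CPM in T22 pool 1 and at 497 to 542 CPM in the others. In CD4_Tcm-TCF7 cells, Penk was at 902 CPM in T127 pool 1 and at 6.73 to 24.5 CPM in the others. In i_CAF, Gzmb was at 575 CPM in T127 pool 2 and at 9.24 to 36.4 CPM in the others.

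Among listed and named genes, 31 were called in opposite directions in different classes, with all pools of one model above those of the other each time. The difference between the classes was not tested. The values are log2 ratios of T22 over T127, given first for the class with the lowest and then for the one with the highest ratio among those in which the gene was called. Higher in T127 in the Xcr1 class were Ifitm1 (-6.01 there, 3.37 in i_CAF), Il7r (-1.49 there, 1.90 in NK.cells), Cenpf (-1.18 there, 1.68 in the Ms4a7 class), Cdk1 (-1.29 there, 1.51 in the Ms4a7 class) and Birc5 (-1.04 there, 1.37 in the Ms4a7 class). T127 was higher in the S100a8 class for Cysltr1 (-1.86 there, 7.26 in CD4_Tcm-TCF7), Rgcc (-5.03 there, 2.30 in CD4_Tcm-TCF7) and Mcm6 (-4.28 there, 1.13 in the Ms4a7 class). Higher in T127 in CD4_Tcm-TCF7 were Lef1 (-2.85 there, 5.36 in Endo.cells), Lag3 (-4.61 there, 2.54 in Macro-others), Irf8 (-3.43 there, 1.45 in Macro-MKI67) and Sgk1 (-1.48 there, 1.21 in Macro-others). T127 was higher in the Ms4a7 class for Cd79b (-1.53 there, 6.37 in i_CAF), Ier3 (-3.56 there, 1.25 in Endo.cells), Iigp1 (-2.14 there, 2.26 in i_CAF), Fosb (-1.98 there, 1.34 in CD4_Tcm-TCF7) and Fos (-1.44 there, 1.01 in NK.cells). Higher in T127 in Macro-others were Cdh1 (-3.82 there, 1.61 in CD4_Tcm-TCF7), Ccl5 (-3.19 there, 2.17 in NK.cells), Epcam (-3.81 there, 1.28 in the Ms4a7 class), F13a1 (-2.99 there, 1.47 in the S100a8 class) and Cd9 (-2.07 there, 1.43 in i_CAF). T127 was higher in i_CAF for Tmem176a (-1.51 there, 4.58 in CD4_Tcm-TCF7), Gas6 (-1.65 there, 2.54 in Endo.cells) and Gbp3 (-1.52 there, 2.24 in Macro-MKI67). Higher in T127 in Endo.cells were S100a4 (-4.74 there, 1.08 in CD4_Tcm-TCF7) and Gbp2 (-1.61 there, 2.21 in Macro-MKI67). In other classes the same held for Lgals3 (-2.06 in Macro-MKI67, 2.07 in CD4_Tcm-TCF7), Kit (-2.52 in NK.cells, 1.22 in the Xcr1 class), Mmp8 (-2.28 in Macro-M2, 1.33 in the S100a8 class) and Ero1l (-1.33 in Macro-M2, 1.49 in CD4_Tcm-TCF7).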

How the results depend on the processing

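Counts of called genes stayed within 1.5 times of those given under centring, TMM factors, a pseudocount of 10 CPM, thinning, subtraction, other totals, fewer cells and each pool left out, and moved further where the rule itself was changed. In the order Macro-M2, Macro-others, Macro-MKI67, Ms4a7 class, Xcr1 class, S100a8 class, CD4_Tcm-TCF7, NK.cells, i_CAF and Endo.cells, 655, 778, 672, 939, 443, 450, 472, 317, 647 and 266 genes were called. With a mean of at least 50 CPM there were 419, 472, 398, 526, 252, 269, 263, 179, 381 and 137, with no limit on level 1681, 1968, 1531, 2190, 943, 708, 1732, 1368, 1613 and 482, and at 4-fold 183, 271, 176, 218, 102, 133, 109, 72, 190 and 60. Log2 ratios of named genes, 213 pairs of gene and class, moved by more than the SD between pools in 52 with a pseudocount of 10 CPM, 26 with thinning, 14 with subtraction (3 more turned sign), 11 with other totals, 9 with centring and 6 with TMM factors. Leaving out each pool in turn gave 639 to 684, 771 to 803, 663 to 699, 921 to 1001, 429 to 494, 511 to 608, 470 to 559, 309 to 364, 637 to 716 and 304 to 377. A minimum of 100 cells kept 7 of the 10 classes, over which 25 genes in place of 14 were higher in T22 and 5 in place of 1 in T127 in every class. With no limit on level these counts were 43 and 11. Leaving out 1 pool gave 7 (T127 pool 3) to 18 (T127 pool 4) for T22 and 0 (T127 pool 2) to 1 for T127, and Spp1 also dropped out (0 genes) at 50 CPM, with thinning, and with 1 or 2 times the free-RNA estimate subtracted. Wfdc18, itself a tracer behind the estimate, turned sign when the estimate was subtracted once or 2 times, at log2 ratios of -0.77 and -0.76 in Macro-M2, -0.82 and -0.82 in Macro-others and -2.32 and -2.32 in the Ms4a7 class, and with 2 times in Macro-MKI67 (-1.10) and the Xcr1 class (-0.48). Mt2 in the Ms4a7 class turned to -1.04 with 2 times. Looser tracers gave free-RNA shares of 3.51% (T22) and 1.84% (T127) in Macro-M2, 0.952% in Macro-MKI67 and 2.64% in the Ms4a7 class of T127. A called gene was called in the opposite direction 13 times over all classes and settings, each time with 1 or 2 times the free-RNA estimate subtracted. No paired analysis was possible because each model counts as 1 sample, no test was run, and a pool number only names a capture. Genes near 20 CPM rest on few UMIs in the small classes, and the same-named classes differ in depth and makeup between the models.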
